A study of Homo sapiens with 14 samples.

Results

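The interleukin-6 family is the set of cytokines that signal through the shared receptor subunit gp130, together with their receptors. Examined here were 9 genes, 9 of the 54628 gene symbols in the knockdown tables, 9 of the 57791 genes in the old and young tables and 9 of the 38716 gene symbols in the ICM tables. They were listed by name, with no threshold on their values, though with earlier results of these data known: the ligands IL6, LIF, IL11 and CLCF1, the receptor subunits IL6ST (which encodes gp130), OSMR, LIFR and IL11RA, and the feedback inhibitor SOCS3. IL6R, the ligand-binding receptor of IL6, is given beside them.

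IL6 and IL11 first meet their own receptor subunits, IL6R and IL11RA, and the complex then joins gp130. Most other ligands of the family signal through gp130 paired with LIFR or OSMR. JAK kinases bound to the receptor chains phosphorylate the transcription factor STAT3, which turns on SOCS3, whose protein binds gp130 and blocks the JAKs. In fibroblasts the family is known for its place in the senescence-associated secretory phenotype, the mix of secreted cytokines, proteases and growth factors of senescent cells, of which IL6 is a classical marker, and IL11 and LIF are known products of activated fibroblasts.

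Poly(A)-selected RNA of IMR90, primary human fetal lung fibroblasts, was sequenced in 7 groups whose titles list 2 replicates each. Isolates I79 and I10 of these cells were each sampled young (low passage, proliferating) and old (passaged into replicative senescence). I79 was also sampled after ICM (inflachromene), a small molecule that binds HMGB1 and HMGB2. In the last pair of groups, HMGB2, which encodes a chromatin protein lost at senescence entry, was knocked down with siRNA (HMGB2 KD) beside wild type (WT). Which isolate these cells came from is not in the labels, and it is also unstated if a control siRNA was used in WT. Old and young groups each have 1 deposited column, which may pool the replicates or hold 1 of them, so these values carry no SD. The labels state no allele or modification other than the knockdown, and no source used here says that replicates came from separate cultures, so p-values measure the spread between these libraries only.

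Depth ranged from 33561766 to 41168932 counts in the WT and knockdown libraries and from 14991385 to 20632959 estimated counts in old and young columns, and was 13290131 and 10971132 reads in ICM. The knockdown was visible in its target: HMGB2 stood at 27.1 and 27.3 normalised CPM (counts scaled to library size) in WT against 3.22 and 3.64 CPM with the siRNA. HMGB2 was also lower in old than in young columns, at 38.2 against 122 CPM in I79 and 46.3 against 141 CPM in I10. The fibroblast label was checked on marker lists. All 10 fibroblast markers passed the count filter, while CDH1, SFTPC, CDH5, PTPRC, LYZ and CD3E, defining genes of epithelial, endothelial and immune cells, were each at 0 or at most 0.22 CPM in every WT, HMGB2 KD, old and young column. Other genes of these lists were expressed, foremost KRT18 (epithelial list), TEK (endothelial list) and CD68 (leukocyte list), a lysosomal gene that fibroblasts also use. At lower levels, KDR reached 8.25 CPM (HMGB2 KD replicate 1), KRT19 7.30 CPM (I10 young) and VWF 2.82 CPM (I79 old). CD14 reached 1.31 CPM (WT replicate 1) and EPCAM 0.70 CPM (HMGB2 KD replicate 2). Summed over each list, WT and knockdown libraries had 42.1 to 46.0 and 58.0 to 81.0 CPM of epithelial, 73.2 to 87.0 and 64.8 to 79.6 CPM of endothelial and 39.1 to 39.8 and 44.5 to 49.9 CPM of leukocyte markers, and their part in the results was not tested. Fewer producing cells and less RNA per cell cannot be told apart in bulk libraries.

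The promoter sequences in which a searched motif was found are shown because IL6 is a textbook target of NF-kB and IL11 of AP-1, and LIFR encodes a receptor upstream of STAT3. RefSeq (GRCh38.p14) promoter entries matched 7 of the 9 genes, with 11 entries. The table used here held none for LIF and CLCF1. The 250 bases before each start were searched on both strands for the NF-kB consensus, for the AP-1 motif TGANTCA and for the STAT motif TTCNNNGAA. Motif bases are in capitals, and each sequence is read 5′ to 3′ on the gene's strand, ending at the base before the start site. The positions are GRCh38.p14 throughout, unlike the GRCh37 gene positions given with the values.
IL6, chr7:22727080-22727199, plus strand: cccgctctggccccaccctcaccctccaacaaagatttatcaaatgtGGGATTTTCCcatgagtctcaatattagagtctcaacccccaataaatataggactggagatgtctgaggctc
IL11, chr19:55370464-55370583, minus strand: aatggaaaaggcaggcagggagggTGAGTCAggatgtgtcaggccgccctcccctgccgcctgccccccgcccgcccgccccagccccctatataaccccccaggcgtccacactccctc
LIFR, first entry, chr5:38595406-38595655, minus strand: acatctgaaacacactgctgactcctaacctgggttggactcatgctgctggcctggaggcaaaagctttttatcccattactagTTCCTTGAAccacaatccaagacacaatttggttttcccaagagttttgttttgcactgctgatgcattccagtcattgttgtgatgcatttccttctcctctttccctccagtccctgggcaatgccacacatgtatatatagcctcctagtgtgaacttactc
LIFR, second entry, chr5:38557468-38557717, minus strand: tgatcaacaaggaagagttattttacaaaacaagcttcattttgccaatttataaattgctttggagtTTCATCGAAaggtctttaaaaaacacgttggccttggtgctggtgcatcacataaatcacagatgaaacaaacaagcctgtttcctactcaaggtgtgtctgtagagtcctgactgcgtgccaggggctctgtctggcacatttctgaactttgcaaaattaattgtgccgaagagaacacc
Counted from the start site, the NF-kB match of IL6 lay at bases -73 to -64, the AP-1 match of IL11 at -96 to -90, and the STAT matches of LIFR at -165 to -157 and -182 to -174. Of 35116 promoters of the same length, 5.21% held the NF-kB motif, 6.57% the AP-1 motif and 6.57% the STAT motif. The letters searched were not in the 250-base window of the third LIFR entry (chr5:38556647-38556896), nor in those of IL6ST, OSMR, IL11RA and SOCS3. For SOCS3 these were chr17:78360926-78361175 and chr17:78359668-78359917, and whether they adjoin its main start site was not checked. Bases outside the windows were not searched, so absence of a motif from these genes' promoters cannot be read from this.

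The knockdown comparison asks how the family's transcripts stand when HMGB2 is depleted, and it may include effects of transfection, since a control siRNA is not stated. In HMGB2 KD, LIF and SOCS3 fell to well under their WT levels, by 2.6-fold and 2.69-fold, while IL6, IL11, CLCF1 and the receptor subunits did not pass the threshold. Calls needed an adjusted p under 0.01 (edgeR quasi-likelihood test, Benjamini-Hochberg adjusted over all genes tested) together with a log2 fold change past 0.6 either way. By this rule 2 of the 9 genes were called, both lower, where 5.2% of 15338 genes tested were called in either direction. All 9 passed the filter on low counts. Their median log2 fold change was -0.34, beside 0.00 over all genes tested.

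LIF (leukemia inhibitory factor, chr22:30636442-30642748, GRCh37, minus strand) signals through LIFR and gp130. The WT libraries gave 879.7 and 553 CPM, the knockdown libraries 319.7 and 230.4 CPM. Both knockdown libraries lay below both WT libraries. The log2 fold change was -1.38 ± 0.21 (SE, n = 2 against 2, edgeR adjusted p = 0.00089). Without HMGB2 KD replicate 2 the change was -1.16 and missed the threshold (edgeR adjusted p = 0.021).

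IL6 (chr7:22765503-22771621, plus strand), the founding cytokine of the family, reached 495 and 281 CPM in the WT libraries, against 394 and 169.9 CPM after knockdown. The groups overlapped, since the first knockdown library lay above the second WT library. Replicates differed by 1.76-fold in WT and 2.32-fold in HMGB2 KD, more than the difference of the group means, and the log2 fold change was -0.46 ± 0.31 (SE, n = 2 against 2, edgeR adjusted p = 0.41). By replicate number, the knockdown level was 0.80 of WT in replicate 1 and 0.60 in replicate 2. With a replicate block the log2 fold change was -0.53 (edgeR adjusted p = 0.0014), short of 0.6 in size. No source used here says that same-numbered libraries were paired. Without the block, the log2 fold change varied with the library left out. It was 0.00 without WT replicate 1, 0.03 without HMGB2 KD replicate 2 and -0.81 without WT replicate 2, the last with an edgeR adjusted p of 0.0022.

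IL11 (chr19:55875750-55881831, minus strand), which signals through IL11RA and gp130 and is known for its part in fibrosis, was at 703 and 429.6 CPM in WT. In HMGB2 KD it was at 432 and 252 CPM. The higher knockdown library thus reached the lower WT library. Replicate 1 lay above replicate 2 in both groups, and the knockdown level was 0.61 of WT in replicate 1 and 0.59 in replicate 2. With a replicate block the log2 fold change was -0.74 (edgeR adjusted p = 9.4e-07), though pairing of these libraries is not stated. Without the block, the log2 fold change of -0.73 ± 0.24 (SE, n = 2 against 2) did not pass the threshold (edgeR adjusted p = 0.074). This unblocked value varied with the library left out. It was -1.04 without WT replicate 2 (edgeR adjusted p = 2.2e-05), -1.18 without HMGB2 KD replicate 1 (0.013), -0.33 without WT replicate 1 (0.53) and -0.39 without HMGB2 KD replicate 2 (0.41). CLCF1 (cardiotrophin-like cytokine factor 1, chr11:67131639-67141648, minus strand), a cytokine that acts through LIFR and gp130, had 28.2 and 23.2 CPM in the WT libraries, and 23.1 and 27.1 CPM after knockdown. Its groups overlapped and the log2 fold change was -0.03 ± 0.15 (SE, n = 2 against 2).

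Among the receptor subunits the point estimates went both ways and none was called. IL6ST (chr5:55230923-55290850, minus strand) measured 573 and 739 CPM in the WT libraries against 952 and 977 CPM in the knockdown ones, both higher, with a log2 fold change of 0.56 ± 0.16 (SE, n = 2 against 2, edgeR adjusted p = 0.035). IL11RA (chr9:34652159-34661899, plus strand), the receptor subunit that binds IL11, was at 9.06 and 9.43 CPM in WT. It was at 12.7 and 16.3 CPM in HMGB2 KD, again without overlap, and its log2 fold change of 0.65 ± 0.17 (SE) missed the threshold with an edgeR adjusted p of 0.027. OSMR (chr5:38845960-38945698, plus strand), the oncostatin M receptor subunit, ranged from 226 to 256 CPM in WT and from 257 to 285 CPM in HMGB2 KD. LIFR (chr5:38474770-38608456, minus strand) ranged from 35.4 to 40.9 CPM in WT and from 24.9 to 35.3 CPM in HMGB2 KD. Groups of both genes lay side by side with almost no gap.

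SOCS3 (chr17:76352859-76356158, minus strand), the feedback inhibitor of gp130 signalling, had 213 and 176 CPM in the WT libraries against 77.5 and 67.0 CPM after knockdown. Its log2 fold change was -1.43 ± 0.14 (SE, n = 2 against 2, edgeR adjusted p = 5.64e-05), and DESeq2, the replicate block and each left-out library gave the same call. IL6R fell further, the WT libraries giving 23.2 and 29.5 CPM and the knockdown libraries 8.99 and 8.43 CPM, a log2 fold change of -1.60 ± 0.16 (SE, n = 2 against 2, edgeR adjusted p = 5.64e-05). Both knockdown libraries lay below both WT libraries for SOCS3 and for IL6R. Knockdown and WT values were without overlap in 6 of the 9 genes, and in 53.8% of all genes tested.

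**Figure D1:**
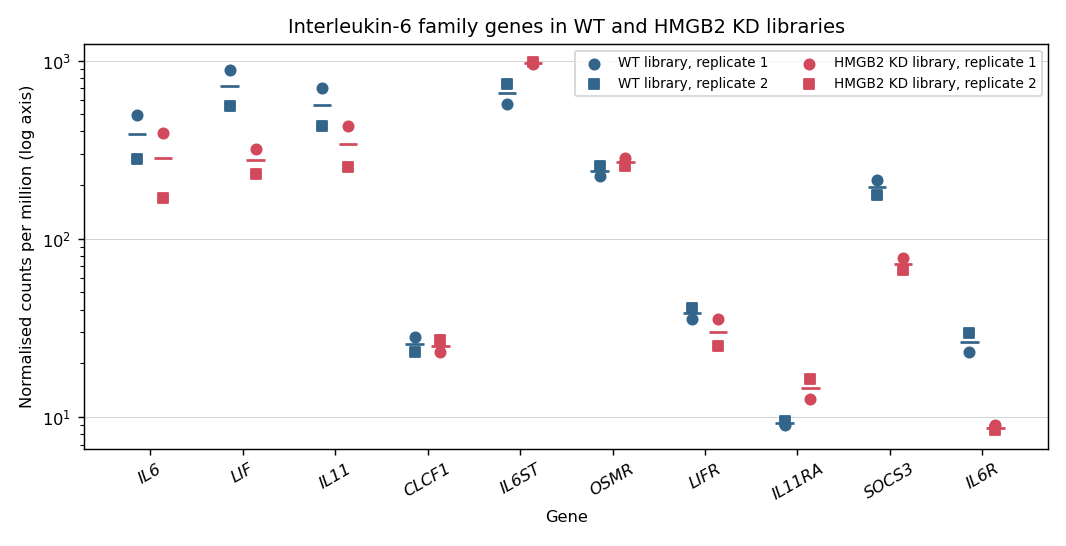
Normalised CPM (log axis) of the 9 genes and IL6R in 2 WT and 2 HMGB2 KD libraries; points are libraries, bars are group means. LIF, SOCS3 and IL6R are lower in both knockdown libraries, while the IL6 and IL11 points of the groups overlap.

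Replicative senescence was examined by setting old against young columns of both isolates, with isolate as a covariate and 1 residual degree of freedom. CLCF1 fell by 2.26-fold in old cells and was the sole member called, against a background of 9.57% of 15116 genes tested. OSMR stood 1.84-fold higher and SOCS3 1.67-fold lower in old columns, in both isolates, and both missed the threshold narrowly. For IL6, LIF, IL11 and IL11RA the sign of the old minus young difference was opposite in the isolates. How many of all genes did the same was not computed. The median log2 fold change of the 9 genes was 0.04, beside -0.01 over all genes tested. Summed marker lists also differed between young and old: the leukocyte list had 21.6 and 157.9 CPM in young and old I79 and 23.5 and 84.9 CPM in young and old I10, the endothelial list 95.9 and 221 and then 66.4 and 167 CPM, and the epithelial list 58.3 and 19.3 and then 66.3 and 30.01 CPM. CD68 (log2 fold change 2.37) and TEK (1.24) were called higher and KRT18 (-1.35) lower, and their part in the results was not tested.

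CLCF1 was at 15.4 CPM in I79 young and 6.78 CPM in I79 old, and at 16.6 CPM in I10 young and 7.35 CPM in I10 old. Both old columns lay below both young columns. The log2 fold change was -1.18 ± 0.16 (SE, edgeR adjusted p = 0.0096). The call stood at the edge of the threshold: DESeq2 gave an adjusted p of 0.013, and edgeR 0.065 without the I79 young column and 0.074 without the I10 young column, in fits that also dropped the isolate covariate. The counts behind it were 241 and 125 reads in I79 young and old and 318 and 133 reads in I10 young and old.

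OSMR was at 282 and 489.9 CPM in young and old I79 and at 272 and 532 CPM in young and old I10, with a log2 fold change of 0.88 ± 0.12 (SE). Its edgeR adjusted p was 0.0102, just past the limit, and DESeq2 called it with an adjusted p of 2.74e-06. IL6ST, with which OSMR pairs, was at 492 and 411 CPM in young and old I79 and at 478 and 461 CPM in young and old I10. LIFR was at 87.0 and 71.8 CPM in young and old I79 and 79.5 and 77.6 CPM in young and old I10. Both were slightly lower in the old columns, with log2 fold changes of -0.16 ± 0.13 and -0.15 ± 0.11 (SE).

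SOCS3 was at 87.2 CPM in I79 young against 47.0 CPM in I79 old, and at 75.8 CPM in I10 young against 50.5 CPM in I10 old. The old columns were lower in both isolates, with a log2 fold change of -0.74 ± 0.12 (SE, edgeR adjusted p = 0.014). DESeq2 placed it past the threshold with an adjusted p of 0.0054.

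IL6 had few reads in these columns. It was counted 53 times in I79 young, 172 times in I79 old, 104 times in I10 young and 80 times in I10 old, or 3.39, 9.33, 5.42 and 4.42 CPM in that order. It was higher in old than young I79, by 1.46 on the log2 scale (95% exact interval 1.01 to 1.93, counting error only), and at -0.30 in I10 (interval -0.73 to 0.14). Over both isolates the log2 fold change was 0.57 ± 0.46 (SE, edgeR adjusted p = 0.38).

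LIF was at 110.1 and 165 CPM in young and old I79 and at 109 and 101 CPM in young and old I10. The young columns were nearly level and only the old columns stood apart. IL11 was at 38.4 and 34.5 CPM in young and old I79 and at 30.7 and 43.7 CPM in young and old I10. IL11RA was at 15.2 and 20.3 CPM in young and old I79 and at 16.0 and 12.6 CPM in young and old I10. For each of the 3 genes the old minus young sign differed between isolates, and the fitted log2 fold changes were 0.24 ± 0.18 for LIF, 0.18 ± 0.19 for IL11 and 0.04 ± 0.23 for IL11RA (SE). IL11 and IL11RA turned to -0.032 and -0.17 with plain library totals in place of TMM scaling, which moved the median of all genes by -0.21. IL6R was at 15.7 and 26.2 CPM in young and old I79 and at 16.3 and 20.8 CPM in young and old I10.

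Within an isolate, where no test is possible, 4 of the 9 genes lay past 0.6 on the log2 scale in I79, beside 41.3% of all genes, and 2 of 9 in I10, beside 37.4%.

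**Figure D2:**
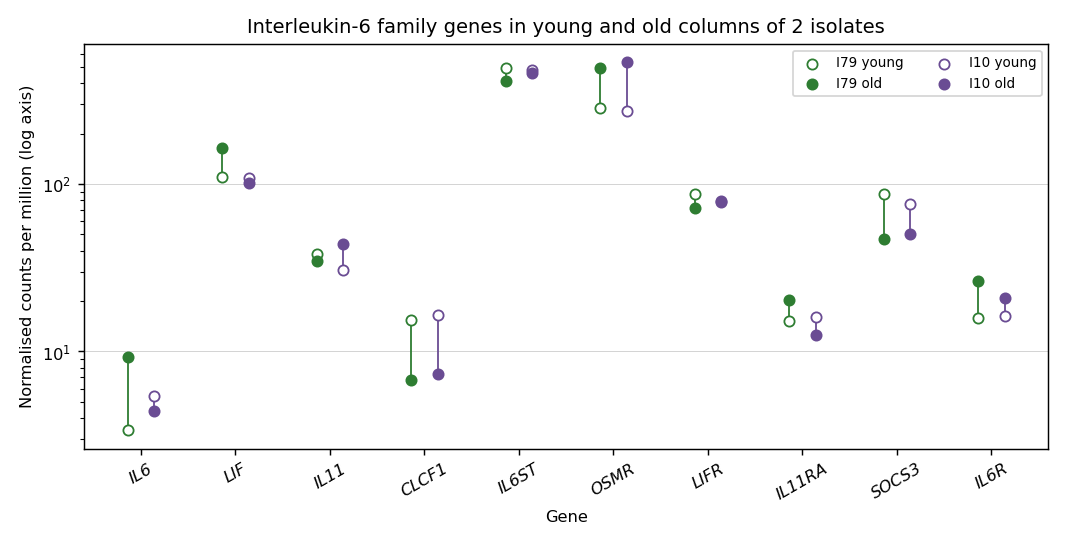
Normalised CPM (log axis) of the 9 genes and IL6R in 1 young (open) and 1 old (filled) column of isolates I79 and I10, joined by a line within the isolate. CLCF1 and SOCS3 are lower and OSMR higher in old columns of both isolates, while the lines of IL6, LIF, IL11 and IL11RA run opposite ways.

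Set side by side, the calls of the comparisons fell on different genes, LIF and SOCS3 in HMGB2 KD and CLCF1 in old cells. LIF was at -1.38 in HMGB2 KD and 0.24 in old cells on the log2 scale, and CLCF1 at -0.03 and -1.18. OSMR was at 0.17 and 0.88, and IL6R at -1.60 and 0.54. SOCS3 was lower in both, at -1.43 and -0.74. The differences between these comparisons, which share no libraries, were not tested.

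**Figure D3:**
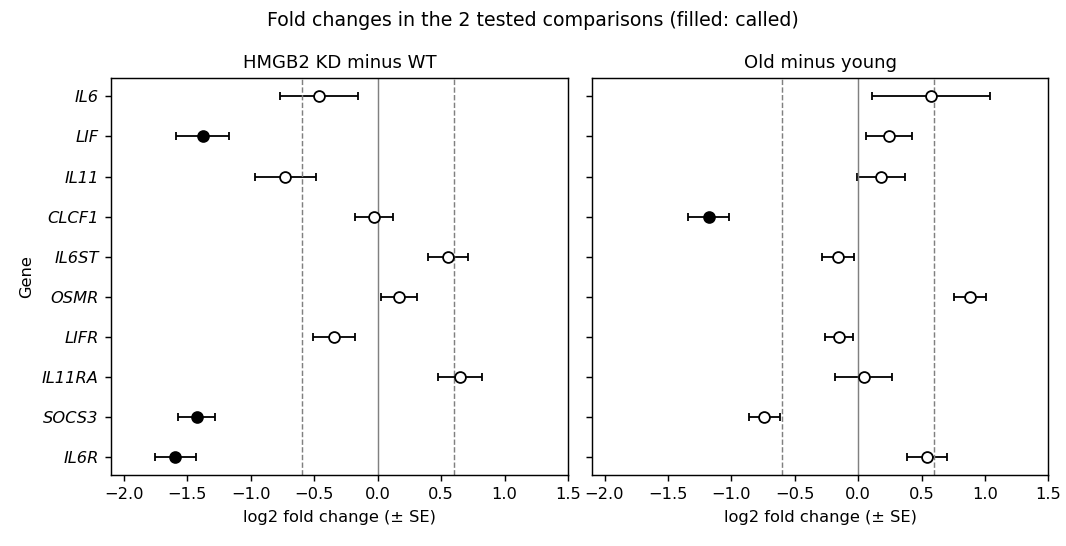
Log2 fold changes (points, ± SE) of the 9 genes and IL6R for HMGB2 KD minus WT (left) and old minus young (right); filled points were called and dashed lines mark 0.6 in each direction. LIF, SOCS3 and IL6R are called on the left, and CLCF1 alone on the right, where OSMR at 0.88 just missed.

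Other genes of the pathway were taken from 5 lists of 62 genes in all: other cytokines, other receptors, JAK-STAT signalling, inhibitors and STAT3 target genes. In HMGB2 KD 3 of the 53 tested were called, 1 higher and 2 lower, a share near the 5.2% of all genes called. Besides IL6R, these were CEBPB, a transcription factor that drives inflammatory genes, with a log2 fold change of -0.79, and KLF6, a zinc-finger transcription factor, with 0.62. The WT libraries gave 769 and 580.1 CPM of CEBPB, and the knockdown libraries 385 and 393 CPM. edgeR called 0 of the 12 JAK-STAT signalling genes, 0 of the 12 inhibitors and 0 of the 3 other cytokines tested, of which 5, 3 and 0 had an unadjusted p under 0.05, and DESeq2 called 0 in each list. The STAT3 target genes tested, 23 in all, had a median log2 fold change of -0.12, beside 0.00 over all genes.

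In old against young 10 of 54 tested genes of these lists were called, 8 higher and 2 lower, beside 9.57% of all genes tested. ADAM10, a protease that sheds IL6R from the cell surface, rose by 1.18 on the log2 scale, and GAB1, an adaptor of gp130 signalling, by 1.01. SOCS2, an inhibitor best known from growth hormone signalling, rose by 1.74.

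Of the 22 STAT3 target genes tested in old against young, 5 were called higher and 1 lower, beside 9.57% of all genes called in either direction. A2M, a protease inhibitor of the acute phase, was at 1.22 and 42.5 CPM in young and old I79 and 0.417 and 18.6 CPM in young and old I10. The cyclin gene CCND1 rose by 2.58 on the log2 scale, the chemokine gene CCL2 by 2.58, the survival gene BCL2L1 by 1.55 and the growth factor gene VEGFA by 0.85. BCL3, a co-factor of NF-kB, fell by 1.03. The median of the list was 0.48, beside -0.01 over all genes.

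Levels of different genes were compared per length. In the young columns, on the TPM scale, IL6ST led with 160.3 in I79 and 140.3 in I10, followed by OSMR at 91.1 and 91.4. The canonical IL6ST transcript held 89.5% and 90.8% of the gene's reads in young I79 and I10, but 80.9 and 81.9 TPM. The canonical OSMR transcript was at 84.2 and 82.7 TPM, so the lead of IL6ST rests on estimates for its other, shorter transcripts. LIF (55.5 and 57.9) and SOCS3 (55.6 and 49.5) came next and exchanged places between isolates, and IL11 followed at 39.1 and 31.9. IL11RA, LIFR and CLCF1 lay between 15.0 and 20.1 TPM. IL6, at 6.33 and 10.2, and IL6R, at 4.73 and 4.93, were lowest.

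The order was different within the WT libraries, where levels were computed as counts per kilobase of merged exons, scaled to library size (RPKM). IL11 (211 ± 72.1) and LIF (185 ± 59.7, SD, n = 2) led and did not differ beyond their spread. IL6 followed at 89.8 ± 34.9 and SOCS3 at 71.1 ± 9.66, with overlapping libraries. IL6ST came next at 54.4 ± 9.73, then OSMR at 33.6 ± 2.93 and CLCF1 at 14.0 ± 1.91. IL6R at 3.77 ± 0.63, LIFR at 3.14 ± 0.32 and IL11RA at 1.76 ± 0.05 were lowest. With the longest transcript as length, IL6 came to 324 and 184 RPKM in the 2 WT libraries, so its rank depends on the length used.

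The transcripts of a gene were also unequal in the old and young columns. All SOCS3 reads fell on the canonical transcript, and nearly all CLCF1 reads did, with 96.6% to 100% of its TPM. LIFR went against this pattern: its canonical transcript took between 6.7% and 14.8% of its TPM, and a longer protein-coding one of 10089 bases took between 78.4% and 89.1%. The IL11RA canonical share ranged from 32.9% in I79 old to 62.9% in I79 young, and was 38.8% in I10 young and 52.2% in I10 old, in opposite directions again. The shares are estimates by the quantification tool, and single columns give no error.

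ICM-treated I79 cells could be set against young cells only across tables that were counted in different ways, so values are given without a test. On a scale of CPM over genes shared by the tables, 4 of the 9 genes lay past 0.6 between ICM and I79 young on the log2 scale, 2 higher and 2 lower, where 60.5% of 14533 genes did. WT, counted in yet another way, lay past 0.6 from I79 young in 7 of the 9 genes, where 44.4% of all genes did. I10 young, counted like I79 young, did so in 1 of 9, where 9.79% did. An effect of ICM and the way of counting cannot be told apart here.

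IL6 had 9.17 and 14.1 CPM after ICM, beside 3.87 CPM in I79 young, a log2 difference of 1.54. The levels of I79 old (9.47 CPM) and ICM were close. IL11 was at 10.03 and 12.6 CPM in ICM, a log2 difference of -1.95 from the 43.8 CPM of I79 young and lower than in any other column. LIF was at 73.6 and 71.8 CPM in ICM and 125 CPM in I79 young, a log2 difference of -0.79. CLCF1 was at 28.4 and 27.8 CPM in ICM, above the 17.6 CPM of I79 young by 0.67 and not near the 6.88 CPM of I79 old, though the difference was 0.22 with the UTR reads of ICM left out. SOCS3 was at 67.2 and 69.5 CPM in ICM, between young (99.5 CPM) and old (47.7 CPM) I79.

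Receptor subunits in the ICM libraries were near the young level. IL6ST was at 649.8 and 593 CPM beside 561 CPM in I79 young, OSMR at 376 and 397 beside 322 CPM, LIFR at 102 and 95.2 beside 99.2 CPM, and IL11RA at 15.7 and 14.2 beside 17.3 CPM. For each of the 4 the mean of the ICM libraries was no further from I79 young than 0.26 on the log2 scale. IL6R was at 35.1 and 34.8 CPM beside 17.9 CPM, a log2 difference of 0.96.

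IL6 showed the widest range of the family on this scale, since WT stood at 537 and 305 CPM, 109-fold above I79 young on average. IL11 in WT (762 and 466 CPM) was 14.0-fold, LIF (954 and 599 CPM) 6.19-fold and SOCS3 (231 and 190.3 CPM) 2.12-fold above I79 young. In HMGB2 KD the ligands stayed above the young columns as values, IL6 at 413 and 173 CPM, while SOCS3, at 81.2 and 68.3 CPM, lay below both young columns. IL6ST, OSMR and CLCF1 differed by at most 1.58-fold between WT and I79 young. LIFR and IL11RA were lower in WT, at 0.42 and 0.58 of the I79 young level. WT and young cells differ in table, counting and possibly isolate or transfection, which cannot be told apart.

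**Figure D4:**
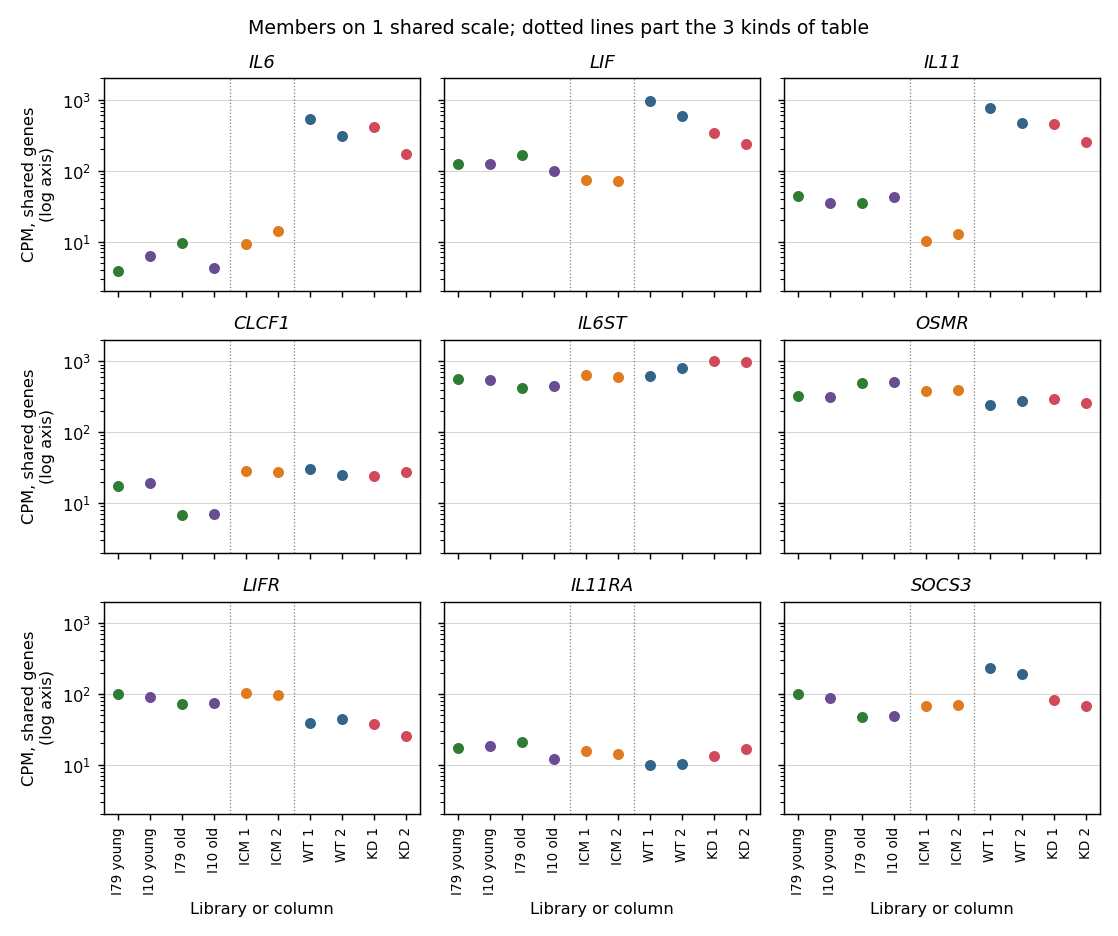
CPM over shared genes (log axis) of each of the 9 genes in every deposited column or library, with dotted lines between the 3 kinds of table; points are single libraries or columns. IL6 and IL11 in WT and HMGB2 KD, at 173 CPM and above, exceed all other columns by far. LIF in HMGB2 KD (335 and 235 CPM) lies less far above I79 old (167 CPM). IL6ST stays between 417 and 997 CPM and OSMR between 246 and 511 CPM.

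The ICM tables also split reads by transcript region. LIF reads lay mostly in the 3′ UTR, at 74.2% and 73.9% of its reads in the 2 libraries, and those of SOCS3 at 60.3% and 58.5%. The median over genes with at least 100 reads was 23.7% and 22.5%. IL6 was at the other end, with 3 of 118 and 5 of 150 reads in the 3′ UTR, or 2.54% and 3.33%, a share at or below which 13.1% and 15.9% of genes lay. IL11RA, at 16.3% and 11.3%, was the other member with few such reads. The replicates ranked LIF highest, SOCS3 second and IL6 lowest alike. With the UTR reads of the ICM libraries left out and the young column kept whole, LIF, IL11 and SOCS3 lay further below I79 young, at log2 differences of -2.42, -2.84 and -1.95, a step that takes most reads from genes with a large UTR share.

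**Figure D5:**
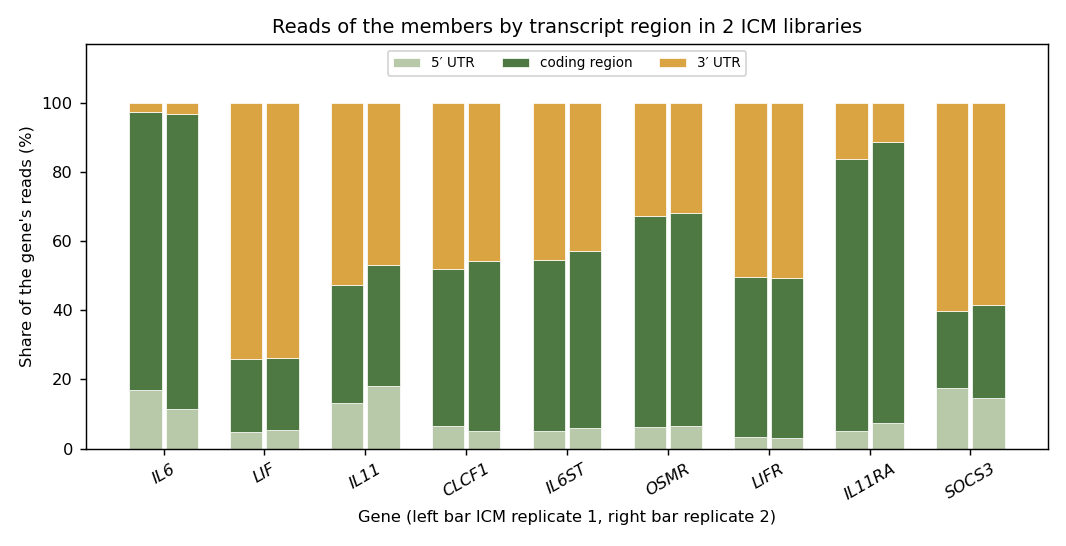
Share of each gene's reads (%) in the 5′ UTR, coding region and 3′ UTR, in 2 ICM libraries (paired bars). LIF and SOCS3 have most of their reads in the 3′ UTR, IL6 almost none (2.54% and 3.33%).

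Genes that overlap the members on the opposite strand limit some values, since no source used here says if counting was stranded. RICTOR overlaps OSMR, STEAP1B overlaps IL6, RAD9A overlaps CLCF1 and CCL27 overlaps IL11RA. Noncoding genes also lie opposite: LIF-AS1 and LIF-AS2 over LIF, IL6-AS1 over IL6 and LIFR-AS1 over LIFR. IL6ST is overlapped by 3 noncoding genes or pseudogenes on the opposite strand. Shared reads cannot be told apart at these genes. CLCF1 and IL11RA are also overlapped on their own strand by protein-coding genes, ENSG00000256514 and ENSG00000258728. Reads may be shared there even if counting was stranded. IL11 and SOCS3 have no overlapping gene in the annotation used.

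By a fixed rule, the genes whose levels were most like a member's across 8 columns (WT, HMGB2 KD, old and young, deviations from the mean of each table) were listed. For SOCS3 these were ELOVL5 (r = 0.99), MAT2B, SLC35B4, PRKAR2B and TBC1D9, and for LIF they were IL18R1 (r = 0.98), ENO3, TMX4, RPAIN and DBT. For IL6 they were RSL24D1 (r = 0.97), MITD1, ANKRD46, ZNF585A and CHURC1, and for IL11 they were CCDC28A (r = 0.95), MGST1, ANAPC10, NDUFV2 and SLC9B2. Pearson's r over 8 columns that share tables and depth, ranked over 11606 genes, is a description with no test.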

How the data were processed

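Per the labels, poly(A)-selected RNA of IMR90 cells was made into TruSeq libraries. The knockdown experiment was deposited as whole-number counts, 1 table a library; its summary rows, 16.9% to 18.0% of the total, stayed out of library sizes and tests. For old and young groups the authors deposited estimated counts and TPM per transcript, which were summed per gene through GENCODE v44 lifted to GRCh37 (97.7% of transcript IDs matched) and rounded. For ICM the authors deposited fractional read counts per gene and transcript region. The submitters' processing notes name STAR 2.6.0c, featureCounts, DESeq2 and GRCh37. The tool behind the transcript and region tables and the use of strand are not given in the sources used here.

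Counts were tested with edgeR 4.0.16 in R 4.3.3 (quasi-likelihood test, TMM scaling, filterByExpr, Benjamini-Hochberg). A SE is the log2 fold change over the square root of F. Alternatives were DESeq2 1.42.0, other size factors, no filter, an adjusted p under 0.05, a replicate block, a RUVs factor, no isolate covariate, counts made from TPM and leaving out each library. ICM ratios are differences of log2 CPM (prior count 2) over 24638 shared genes, after requiring 10 counts in at least 2 columns. Likeness of genes is Pearson's r of log2 CPM, centred within each table, over genes of at least 1 CPM on average. Intervals are exact (Clopper-Pearson, 95%) and cover counting error only, as reads carry no molecular identifiers. No replicate pair agreed within sampling noise (chi-square per degree of freedom 18.0 in WT, 28.0 in HMGB2 KD, 1.71 in ICM). When 200 genes were changed by a log2 value of 1.5 in simulated counts, the HMGB2 KD design (15031 genes) recovered 88% with 4 false calls and the old against young design (14823 genes) 91% with 0 false calls by edgeR.

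The 9 genes and all lists were chosen with earlier results of these data known. Genes named are the 9, HMGB2, IL6R, the called genes of each pathway list (at most 6 a list, by size of change), markers, and the 5 genes most like IL6, LIF, IL11 and SOCS3. Replicate numbers of WT and HMGB2 KD were taken as names only in the main fit. Of the pathway lists, 1 called gene is counted but not reported here by name.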

Additional observations from a re-analysis of the deposited data

Results flagged for a closer look

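The sign of the old minus young difference was opposite in the isolates for 4 of the 9 genes. The share of all genes with opposite signs was not computed, so the count is not read as particular to these genes. With 1 column per group this difference between isolates was not tested. IL6 was at 1.46 in I79 and -0.30 in I10 on the log2 scale, and LIF at 0.58 in I79 and -0.10 in I10. IL11 was at -0.15 in I79 and 0.51 in I10, and IL11RA at 0.42 in I79 and -0.34 in I10. For LIF and IL11RA the 95% exact counting intervals in each isolate did not reach 0. That of LIF in I10 (-0.19 to -0.0076) came close to it. The intervals of IL6 in I10 (-0.73 to 0.14) and IL11 in I79 (-0.32 to 0.01) did reach 0.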

How the results depend on the processing

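In HMGB2 KD, 2 of the 9 genes were called; the count was 4 without a filter on low counts and 4 with the replicate block (LIF, IL11, IL11RA and SOCS3 in both), and from 1 to 4 with a library left out, lowest without HMGB2 KD replicate 2 (SOCS3) and highest without WT replicate 2 (IL6, LIF, IL11 and SOCS3). Pathway genes called, 3, came to 5 with plain library totals, 6 without a filter, 6 at an adjusted p under 0.05, 6 with the replicate block, 5 with a RUVs factor and 1 to 5 with a library left out. Of all genes, 797 were called, 1243 with the replicate block and 312 to 999 with a library left out. Plain totals changed the share of higher calls from 55.0% to 44.3%. Deviations of same-numbered WT and HMGB2 KD libraries correlated at r = 0.12 over 15338 genes, in 2 pairs only. IL6 ranged from -1.20 to 0.026 and CLCF1 from -0.17 to 0.11 with a library left out.

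In old against young, 1 member was called, 2 by DESeq2, 2 with median-of-ratios size factors, 2 with counts made from TPM, 3 with plain totals, 3 without a filter, 3 at an adjusted p under 0.05, 3 without the isolate covariate and 0 to 3 with a column left out. Every fit with a column left out also dropped the isolate covariate, since 3 columns leave no residual degree of freedom beside it, so these values change both choices. Pathway genes called, 10, came to 20 without a filter, 19 at an adjusted p under 0.05 and 0 to 22 with a column left out. All genes called, 1447, came to 3130 with plain totals (32.6% of them higher, beside 60.1%), 4251 without a filter, 3860 at an adjusted p under 0.05 and 0 to 3890 with a column left out. edgeR made 0 calls without the I79 young or the I10 young column and without the covariate, where 4411 and 4435 genes had an unadjusted p under 0.05. With plain totals IL11 was at -0.032 and IL11RA at -0.17. With a column left out, IL6 ranged from -0.0027 to 1.06, LIF from -0.10 to 0.59, IL11 from -0.0012 to 0.35 and IL11RA from -0.30 to 0.38. Old and young columns were paired by isolate through the covariate; a replicate block could not be fitted there, as the columns carry no replicate number.

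For ICM against I79 young, 4 members lay past 0.6 and 3 to 5 did under the 7 alternatives. Signs turned with WT as control (IL6 -5.14, IL6ST -0.18, LIFR 1.26, IL11RA 0.57), with I10 young as control (LIFR 0.11), with coding and noncoding regions only (IL6ST -0.22, IL11RA 0.10, IL6R -0.37) and with a library left out (LIFR -0.058 to 0.045). Where no cause is named, the cause was not tested. Depth limits IL6 in the old and young columns, at 53 to 172 reads.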
